A study of Mus musculus with 8 samples.

Results

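The 9 genes described here encode integrin chains that can bind CYR61, a secreted matricellular protein of the CCN family that is encoded by Ccn1. They are Itgam, Itgb2, Itgav, Itgb3, Itgb5, Itgb1, Itga4, Itga5 and Itga6, chosen by name from the 32249 genes in the count tables. All 9 had counts in all 8 libraries, and all 9 passed the filter on low counts.

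Integrins are surface receptors for matrix proteins and for ligands on other cells, built from an alpha chain and a beta chain, and a chain is carried to the surface only with a partner. Itgam and Itgb2 encode the chains of Mac-1, the complement and fibrinogen receptor of myeloid cells. Itgav pairs with Itgb3, Itgb5 or Itgb1 in receptors of vitronectin and fibronectin, while Itga4, Itga5 and Itga6 pair with Itgb1 in receptors of vascular cell adhesion molecule, fibronectin and laminin. Bound integrins signal through talin, kindlin and, in macrophages, Src-family kinases and Syk.

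The series compared macrophages grown from bone marrow with and without added CYR61, and its title names SYK, NFκB and PDGF signalling in liver fibrosis. For CYR61 libraries, hind limb marrow of 10-week-old C57Bl/6J mice, which the labels call male, was cultured in M-CSF for 3 days and given CYR61 at 4 µg/mL for another 24 h. Control libraries came from the same kind of culture in M-CSF, the macrophage growth factor, without the protein. There were 4 libraries of each, made with HIVE, a device of small wells that hold a cell each, in which every captured RNA molecule gets a unique molecular identifier (UMI). Whether the 4 replicates came from different mice or cultures is not in the labels, so p-values measure the spread between libraries, which may be technical.

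A barcode counted as a cell where 300 genes or more were detected and no more than 20% of UMIs were mitochondrial, and each cell was counted only in the library of its date stamp where it had most UMIs. This left 9196 of 12848 barcodes, because 6443 of the 12848 were also listed in another table of the same date. CYR61 libraries held 499 to 3604 such cells and 1149043 to 13933610 UMIs, and control libraries 294 to 1058 cells and 842528 to 3436577 UMIs. Barcodes 1 base away from a barcode with more UMIs in a library of the same date made up 1.5% to 56.1% of the cells in CYR61 libraries and 37.2% to 86.1% in control libraries, so cells are not all independent. Against the labels, CYR61 replicates 1 and 2 and control replicates 2 and 3 carried Xist RNA, at 1152 to 1249 counts per 1000000 UMIs (CPM), and the other 4 libraries Y-linked RNA. Replicates 1 and 2 of both groups have the earlier date stamp, so among CYR61 libraries the date and the Xist and Y split cannot be told apart. All 8 macrophage markers, among them Csf1r and Cd68, had counts in every library and summed to 10584 to 15462 CPM with CYR61 and 8038 to 12823 CPM in controls. The 8 neutrophil granule markers summed to 285 to 2777 CPM with CYR61 and 401 to 1283 CPM in controls. Without cells of other classes, 0 of the 9 members passed the test between the groups.

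Itgam, whose product CD11b is the alpha chain of Mac-1, was the most abundant member by CPM in every library. It had 1342, 1476, 1182 and 1379 CPM in CYR61 replicates 1 to 4, against 1633, 1172, 1344 and 1285 CPM in control replicates 1 to 4. Itgb2, which encodes its beta chain CD18, had 697, 780, 825 and 936 CPM in CYR61 replicates 1 to 4, against 1140, 672, 701 and 998 CPM in control replicates 1 to 4. The groups overlapped in both genes, and control replicate 1 was the highest library in both. Together these 2 chains made up 52.3% to 63.6% of the CPM of all integrin genes. Itgam lies on chromosome 7 (128062640 to 128118491, plus strand) and Itgb2 on chromosome 10 (77530252 to 77565708, plus strand) in the GENCODE vM21 annotation of mm10.

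Of the 9 members, 6 had a promoter in the RefSeq table of build GRCm38.p6. The 250 bases before the start of Itgam, the member that led the levels, are printed with those of Itgav, an alpha chain far lower in the order. Both are on the plus strand, Itgam at chr7:128062390-128062639 and Itgav at chr2:83724147-83724396. Capitals mark GAGGAA on either strand (TTCCTC), the core of sites bound by the myeloid factor PU.1.
Itgam: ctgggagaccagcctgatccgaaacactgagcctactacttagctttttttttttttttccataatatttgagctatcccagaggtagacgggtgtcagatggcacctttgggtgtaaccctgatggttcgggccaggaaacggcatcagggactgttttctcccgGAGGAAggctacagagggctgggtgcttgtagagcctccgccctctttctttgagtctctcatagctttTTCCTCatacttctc
Itgav: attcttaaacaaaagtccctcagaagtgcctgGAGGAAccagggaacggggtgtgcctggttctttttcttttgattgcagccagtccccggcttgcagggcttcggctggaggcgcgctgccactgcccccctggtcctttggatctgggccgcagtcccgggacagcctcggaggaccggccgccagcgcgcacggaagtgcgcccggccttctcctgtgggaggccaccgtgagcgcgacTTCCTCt
Each held 2 matches, beginning 84 and 15 bases before the start in Itgam and 218 and 7 bases before it in Itgav. The letters occurred in 4 of the 6 members' promoters, the others being Itgb1 and Itga5, and in 23.3% of 32851 promoters of the same length. The matches are letters in these windows and not binding sites.

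Itgb1 encodes the beta chain shared by the matrix receptors and was the third member by CPM. It had 718, 686, 437 and 479 CPM in CYR61 replicates 1 to 4, against 775, 574, 661 and 474 CPM in control replicates 1 to 4. Libraries of both groups were spread over the same range, with 3 of the 8 under 500 CPM. Itgb1 lies on chromosome 8 (128685654 to 128733200, plus strand).

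Among the alpha chains that pair with Itgb1, the laminin receptor chain Itga6 had 289, 342, 144 and 228 CPM in CYR61 replicates 1 to 4, against 230, 211, 355 and 148 CPM in control replicates 1 to 4. Its highest library was a control and its lowest a CYR61 library. Itga4, the chain of the receptor for vascular cell adhesion molecule, had 251, 257, 131 and 196 CPM in CYR61 replicates 1 to 4, against 193, 222, 112 and 140 CPM in control replicates 1 to 4. In each date stamp's mean the CYR61 libraries were above the controls, but the groups overlapped. Itga5, the chain of the classical fibronectin receptor, was low, at 64.5, 57.4, 45.3 and 48.7 CPM in CYR61 replicates 1 to 4, against 57.9, 62.8, 41.5 and 56.8 CPM in control replicates 1 to 4. The groups overlapped over nearly the whole range of Itga5. Itga6 and Itga4 lie on the plus strand of chromosome 2 (71745616 to 71858416 and 79255426 to 79333123), where Itgav lies too (83724397 to 83806916), and Itga5 on the minus strand of chromosome 15 (103344286 to 103366763).

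Itgav, the alpha chain of the vitronectin receptors, fell into 2 levels inside each group. It had 120, 134, 59.2 and 59.1 CPM in CYR61 replicates 1 to 4, against 56.5, 139, 154 and 67.8 CPM in control replicates 1 to 4. The 4 high libraries were those with Xist RNA and the 4 low ones those with Y-linked RNA, at 137 ± 14.2 and 60.6 ± 4.94 CPM (mean ± SD, n = 4 each). In the control group the high libraries were of different date stamps. Itgb2 was split the other way, at 712 ± 46.8 CPM in the Xist libraries and 975 ± 131 CPM in the Y libraries (n = 4 each). These 2 of 9 members did not overlap between the Xist and Y libraries, against 19.6% of all 10422 genes tested (10.5% all above and 9.12% all below in the Xist libraries), so the count of 2 stands near the background.

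Of the beta chains that pair with Itgav, Itgb5 had 157, 149, 96.6 and 115 CPM in CYR61 replicates 1 to 4, against 171, 161, 131 and 104 CPM in control replicates 1 to 4. Itgb3, the beta chain of a receptor through which CYR61 acts on endothelial cells, was the lowest member in all 8 libraries. It had 16.3, 28.1, 23.5 and 26.2 CPM in CYR61 replicates 1 to 4, against 37.8, 38.2, 24.9 and 32.9 CPM in control replicates 1 to 4. All CYR61 libraries were below 3 of the 4 control libraries, and the fourth, control replicate 3, lay inside the CYR61 range. Its counts were small, from 21 UMIs in control replicate 3 to 392 in CYR61 replicate 2. Itgb3 is also a platelet gene, and its platelet partner Itga2b was at 0 to 8.11 CPM and the platelet gene Gp9 at 0 to 1.19 CPM in the 8 libraries. The 7 platelet markers summed to 586 to 1359 CPM with CYR61 and 372 to 875 CPM in controls, nearly all of it Pf4, and their part in the levels of Itgb3 was not tested. Itgb5 lies on chromosome 16 (33829665 to 33949338) and Itgb3 on chromosome 11 (104608000 to 104670476), both on the plus strand.

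**Figure D1:**
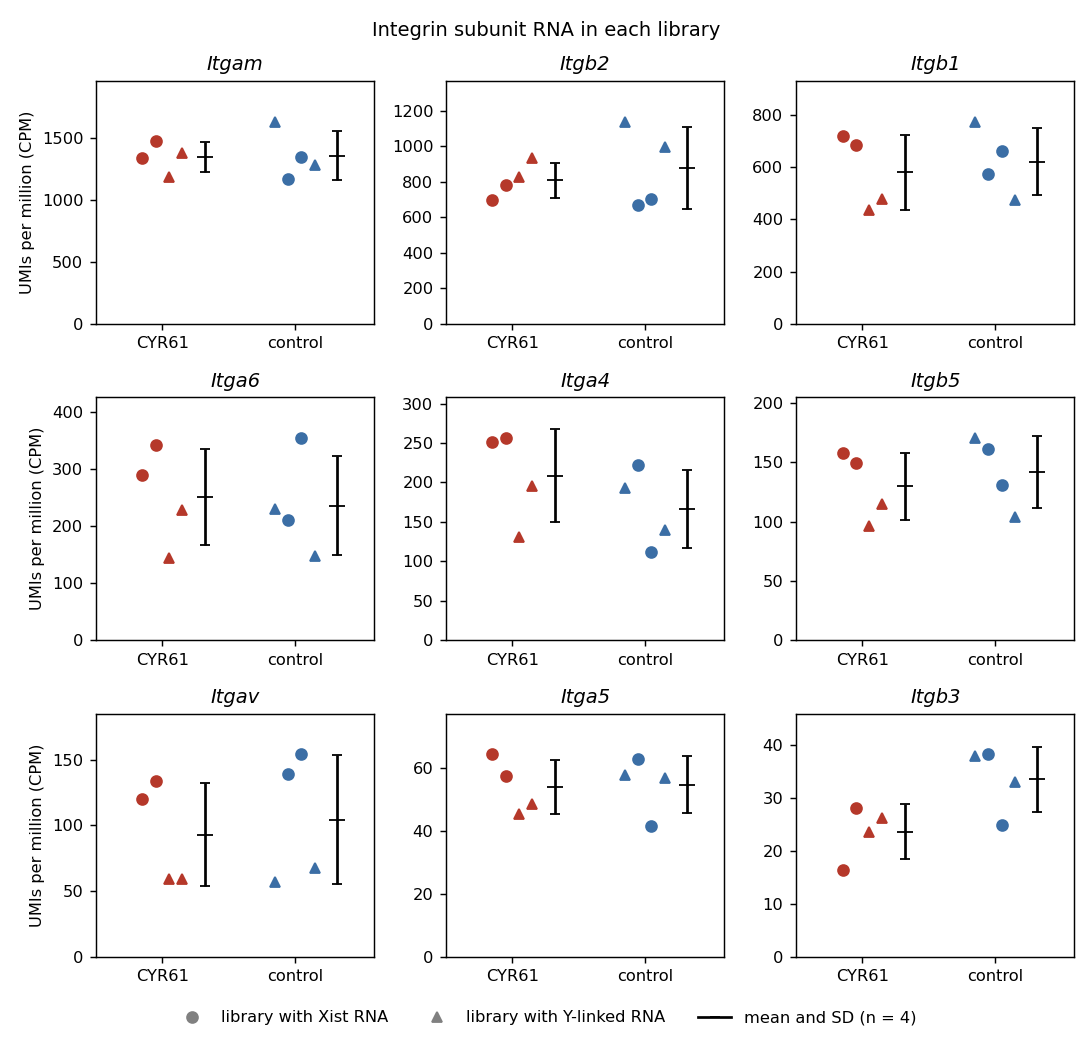
CPM (counts per 1000000 UMIs of a library's cells) of each member in the 4 CYR61 libraries and the 4 control libraries, replicates 1 to 4 from left to right, with the group mean and SD at the right of each group; circles are libraries with Xist RNA and triangles libraries with Y-linked RNA. The groups overlap in every panel, and in Itgav the circles lie at 120 to 154 CPM and the triangles at 56.5 to 67.8 CPM.

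Levels of different genes were also set side by side per kilobase (kb) of the longest annotated transcript, since the sources used here do not say which part of a molecule is read. A UMI counts a molecule, so the per kb values hold only where longer RNAs gave more UMIs, which was not tested. Per kb, Itgam and Itgb2 could not be ordered, with means of 289 and 284 CPM per kb over the 8 libraries and Itgam above Itgb2 in 4 of 8. By CPM, Itgam was above Itgb2 in all 8 libraries. Itgb1 followed at 157 CPM per kb and Itga6 at 56.4, and each was below the gene before it in all 8 libraries. Itgb5 was next at 41.3 CPM per kb, below Itga6 in 7 of 8 libraries and above Itga4 in all 8 libraries at 19.2, while by CPM alone Itga4 stood above Itgb5 in 7 of 8. Itgav and Itga5 could not be ordered per kb, at 14 and 12.3 CPM per kb with Itgav above in 4 of 8 libraries. By CPM, Itgav was above Itga5 in 7 of 8. Itgb3 was last at 4.93 CPM per kb.

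For the receptors these chains can form, the beta partners of Itgav stood in a steep order. Per kb, Itgb1 was 29.6 times Itgb3 in the median library (range 21.8 to 66.7) and 3.91 times Itgb5 (range 3.06 to 4.36). Itgb5 was 7.84 times Itgb3 (range 5.55 to 17). By CPM, without dividing by length, the medians were 19.5 for Itgb1 over Itgb3 and 4.55 for Itgb1 over Itgb5. For Itgb5 over Itgb3 the median by CPM was 4.45. Itgav RNA was below the sum of Itgb3 and Itgb5 in all 8 libraries, per kb and by CPM. Per kb, Itgb1 exceeded the sum of its alpha partners Itgav, Itga4, Itga5 and Itga6 in all 8 libraries, with a median ratio of 1.47 (range 1.31 to 2.16), and by CPM it did so in 3 of 8.

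The comparison of CYR61 with control asks whether the added protein changed the RNA of its own receptors. None of the 9 members passed the test, 0 higher and 0 lower, against 1.16% of the 10422 genes tested (121 genes, with 1.12% of all tested higher and 0.0384% lower) at an adjusted p under 0.05 in edgeR's quasi-likelihood test over all genes. At an unadjusted p under 0.05, 0 of the 9 members and 6.2% of all genes tested passed in edgeR, and DESeq2 called 0 members and 1.76% of the same genes. The libraries of the 2 groups did not overlap in 0 of the 9 members and in 5.12% of all genes tested. The log2 fold change of CYR61 over control was positive in 4 members and negative in 5, with a median of -0.065 over the members and -0.022 over all genes tested. The median size of the log2 fold change, without its sign, was 0.091 over the members and 0.22 over all genes tested.

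The chains of Mac-1 had the narrowest limits. Itgam averaged 1344 ± 122 CPM in the CYR61 group and 1358 ± 196 CPM in control libraries (SD, n = 4 each), a log2 fold change of 0.014 with a 95% interval of -0.34 to 0.37. That interval runs from 0.792-fold to 1.29-fold. Itgb2 averaged 809 ± 99.7 CPM with CYR61 and 878 ± 229 CPM in control libraries, with a 95% interval of 0.693-fold to 1.27-fold.

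The largest difference was in Itgb3, which averaged 23.5 ± 5.18 CPM in the CYR61 group and 33.5 ± 6.19 CPM in control libraries (SD, n = 4 each). Its log2 fold change was -0.48 ± 0.27 (SE), with a 95% interval of -1.07 to 0.11, and did not pass edgeR's test (adjusted p = 0.910). Next was Itga4, at 208 ± 58.8 CPM with CYR61 and 166 ± 49.9 CPM in control libraries, with a log2 fold change of 0.37 ± 0.24 (SE) that did not pass edgeR's test either (adjusted p = 0.953). Both values kept their sign when any 1 library was left out, from -0.58 to -0.31 for Itgb3 and from 0.26 to 0.60 for Itga4. The other 5 members had log2 fold changes from -0.097 in Itgav to 0.13 in Itga6, with edgeR adjusted p of 1.0, as had Itgam and Itgb2.

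Intervals narrowed for the members that differ between the Xist and Y libraries when these were entered as a block. For Itgav the 95% interval of the log2 fold change was -0.90 to 0.70 with the group alone and -0.42 to 0.24 with the block, around -0.097 and -0.093. For Itgb2 it was -0.53 to 0.35 with the group alone and -0.32 to 0.22 with the block. The block fit called 2.16% of 10910 genes and 0 of the 9 members in edgeR.

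**Figure D2:**
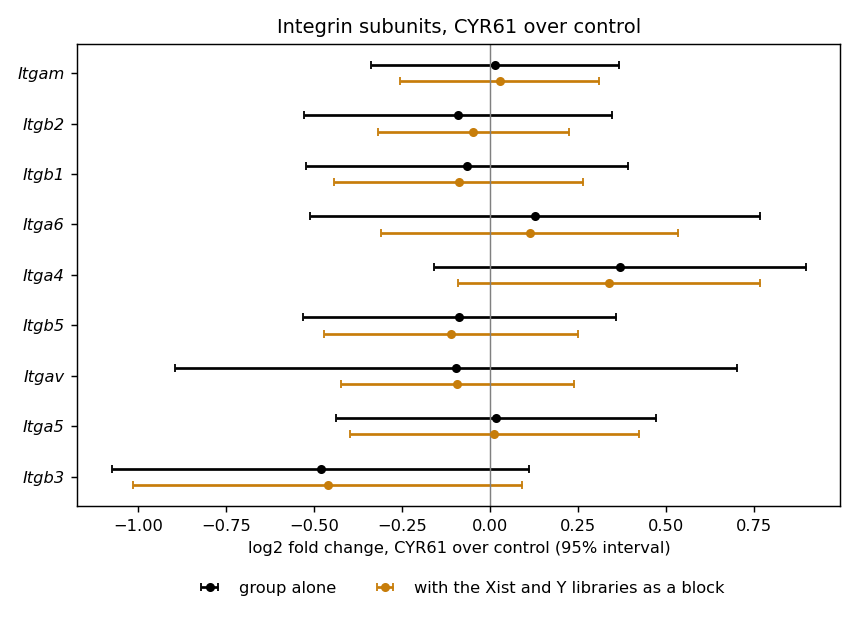
Log2 fold change of each member, CYR61 over control, with its 95% interval from edgeR, fitted with the group alone (black) and with the Xist and Y libraries as a block (orange). All intervals include 0, and the interval of Itgav is -0.90 to 0.70 without the block and -0.42 to 0.24 with it.

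The effect of CYR61 was also compared between the date stamps. The difference, later minus earlier, passed for 0% of 11665 genes in edgeR (0 genes) and for 0 of the 9 members, and at an unadjusted p under 0.05 for 9.86% of genes. The largest among the members was in Itgav, at a log2 difference of -1.46 ± 0.59 (SE, unadjusted p = 0.0302, edgeR adjusted p = 0.477). Within dates, Itgav's log2 fold change was 0.57 in the earlier libraries and -0.93 in the later ones. The earlier CYR61 libraries were both Xist libraries and the later ones both Y libraries, while each pair of controls held 1 of each kind, so date and this split cannot be told apart in that value.

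Both chains of a receptor have to be made by the same cell, and this was read from cells with at least 1000 UMIs, each reduced by calculation to 1000 UMIs. These were 4201 cells of the CYR61 libraries and 1017 of the control libraries, which left out 2938 and 1040 shallower cells. At this depth a UMI of Itgam was expected in 67.6% ± 3.07 of cells in the CYR61 group and 63.8% ± 5.81 in controls (SD, n = 4 each), of Itgb2 in 52.2% ± 3.73 and 54.6% ± 9.43, and of Itgb1 in 39.6% ± 7.89 and 41.2% ± 6.84. Itga6 followed at 18.9% ± 5.55 in CYR61 libraries and 18.3% ± 7.80 in control libraries, and Itga4 at 16.4% ± 4.11 and 13.1% ± 4.30. Itgb5 was expected in 11.3% ± 1.96 of cells in CYR61 libraries and 11.8% ± 2.05 in control libraries, Itgav in 8.47% ± 3.38 and 8.44% ± 3.51, and Itga5 in 4.36% ± 0.826 and 4.95% ± 1.08. Itgb3 was expected in 1.69% ± 0.576 of cells in CYR61 libraries and 2.57% ± 0.487 in control libraries. At 2000 UMIs its share was 2.90% to 3.76% in CYR61 libraries and 5.16% to 6.88% in control libraries, which did not overlap. At 500 and 1000 UMIs and without the reduction, the groups overlapped in Itgb3. The difference at 2000 UMIs was not tested.

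The neutrophil granule gene Ngp was taken as a measure of background, which is a rough one, because Ngp is itself among the genes that mark granule cells. A UMI of Ngp was expected in 2.05% to 17.7% of all cells in a library. Without the granule-marker cells it was expected in 1.08% to 5.10% of cells in CYR61 libraries and 0.125% to 5.77% in control libraries, values that leaving out cells with Ngp lowers. Itgb3, at 1.14% to 2.16% of these cells with CYR61 and 1.92% to 2.99% in controls, lay inside that range, as did Itga5 in 7 of the 8 libraries, with 2.84% to 5.03% with CYR61 and 3.30% to 6.06% in controls. Itgav reached into it in 3 of its 4 low libraries, the lowest at 4.56% in control replicate 1. Shares of cells with these 3 chains are therefore not read as expression by those cells in every library. The range used is that over all libraries, where the median Ngp share was 1.16%. A share was not set against Ngp in its own library. No group of cells that lacks macrophage RNA was found to serve as a closer background, since the granule-marker cells had Csf1r at 313 to 556 CPM.

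Without the barcodes 1 base from a deeper one, the share of cells with Itga5 was 3.85% to 5.10% in CYR61 libraries and 5.11% to 6.23% in control libraries, which did not overlap, while with them the groups overlapped. Itgb5 was then at 11.3% ± 1.92 with CYR61 and 9.26% ± 2.51 in controls (SD, n = 4 each), against 11.3% and 11.8% with those barcodes. This choice left 30 cells of at least 1000 UMIs in control replicate 3 and 68 in control replicate 2, so their shares rest on few cells. Neither difference was tested.

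Mac-1 was the receptor whose chains were found together most often. Both Itgam and Itgb2 were expected in 32.8%, 38.1%, 34.3% and 37.8% of cells in CYR61 replicates 1 to 4, against 47.7%, 27.5%, 35.1% and 37.6% in control replicates 1 to 4. All CYR61 libraries lay inside the range of the controls. The next were the laminin receptor chains Itga6 and Itgb1, at 7.94% ± 3.68 of cells in the CYR61 group and 8.76% ± 4.89 in controls (SD, n = 4 each), and Itga4 with Itgb1, at 6.71% ± 2.97 and 5.44% ± 2.24. Itgav was found with Itgb1 in 3.56% ± 2.27 of cells in CYR61 libraries and 3.30% ± 1.64 in control libraries, and with Itgb5 in 1.15% ± 0.665 and 1.22% ± 0.739. Itga5 with Itgb1 was at 1.97% ± 0.462 in CYR61 libraries and 2.06% ± 0.603 in control libraries.

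None of the 7 pairs compared was called between the groups, and the smallest unadjusted p was 0.343, for Itgav with Itgb3 (exact permutation test). Adjusted over the 7 pairs, p was 0.886 for each in exact two-sided permutation tests over the 70 assignments of the libraries, with 0.0286 the smallest p they can give. Itgav with Itgb3 was at 0.128% ± 0.0848 of cells in CYR61 libraries and 0.269% ± 0.237 in control libraries, which is at most 3.84 expected cells in a library. Without the reduction to 1000 UMIs, both chains of Mac-1 had a UMI in 47.4% ± 10.1 of cells in CYR61 libraries and 43.8% ± 5.91 in control libraries. At 2000 UMIs the share was 66.4% ± 3.08 with CYR61 and 68.0% ± 9.21 in controls, so the shares follow the depth read. Without the granule-marker cells, at 1000 UMIs, it was 36.3% ± 2.38 with CYR61 and 36.6% ± 8.21 in controls.

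The chains of a pair were found together about as often as the product of their own shares gives. For Itgam with Itgb2 the ratio of the 2 was 1.04 ± 0.038 over the 8 libraries and above 1 in 7 of 8. The mean ratio was 1.14 ± 0.307 for Itgav with Itgb5, 1.07 ± 0.119 for Itga6 with Itgb1, 0.995 ± 0.0988 for Itga4 with Itgb1, 1.09 ± 0.167 for Itga5 with Itgb1 and 0.942 ± 0.136 for Itgav with Itgb1. The ratio for Itgav with Itgb3 was 1.11 ± 0.907, too widely spread to read.

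**Figure D3:**
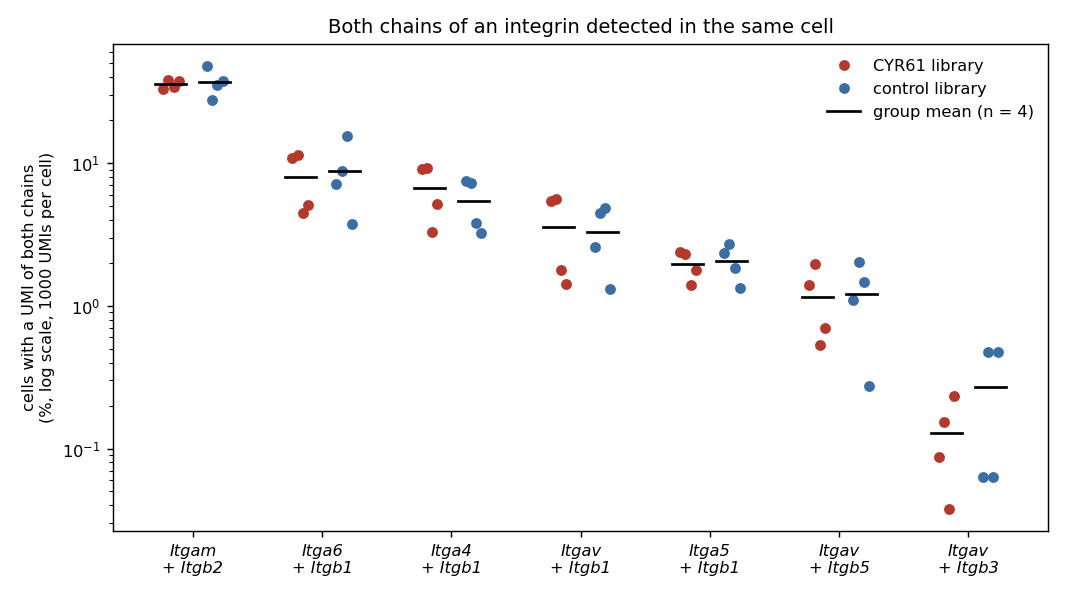
Percent of cells in which a UMI of both chains is expected at 1000 UMIs per cell (log scale) for the 7 receptor pairs; points are libraries, 4 with CYR61 (red, left) and 4 controls (blue, right), and lines are group means. Itgam with Itgb2 lies at 27.5% to 47.7% and every other pair at 15.4% or less, and the groups overlap in each pair.

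The members were next compared between cells of a library that carried markers of another state and the remaining cells, with the library as a block. Dividing-marker cells had at least 3 of 8 cell cycle genes such as Mki67 detected, and 4 libraries held at least 10 of them. Cells with 3 or more of 8 neutrophil granule genes, the granule-marker cells, were left out of them and counted among the other cells. In dividing-marker cells 8.14% of 10007 genes passed edgeR's test (5.8% higher, 2.35% lower), and 1 of the 9 members, Itgb3, which fell. A count of 1 in 9 stands near the share over all genes. Itgb3 had 10.8 and 13.5 CPM in the dividing-marker cells of CYR61 replicates 1 and 2, against 17.3 and 31.3 CPM in the other cells of those libraries. It had 26.7 and 0 CPM in the dividing-marker cells of control replicates 2 and 4, against 39.4 and 34.3 CPM in the other cells. The dividing-marker cells were below the others in all 4 libraries. The log2 fold change was -1.19 ± 0.30 (SE, edgeR adjusted p = 0.00148).

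This rests on 49 UMIs of Itgb3 in 418 cells, of which 46 UMIs were in the 2 CYR61 libraries, and the call was lost without CYR61 replicate 1 (log2 -1.3, edgeR adjusted p = 0.796) or without CYR61 replicate 2 (log2 -0.94, edgeR adjusted p = 1.0). Without barcodes 1 base from a deeper barcode, only those 2 libraries remained, with a log2 fold change of -1.16 for Itgb3. The dividing-marker cells were also deeper, with medians of 1343 to 9455 UMIs against 978 to 1443 in the other cells of the 4 libraries. Ngp was at 0 to 5.0 CPM in dividing-marker cells against 24.4 to 124 CPM in the others. The class rule itself lowers Ngp there, since granule-marker cells count among the others. The part of depth and of granule RNA in the fall of Itgb3 was not tested.

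Itgb2 was lower by CPM in the dividing-marker cells of all 4 libraries, at 697 ± 145 CPM against 800 ± 147 CPM in the other cells (SD, n = 4), with a log2 fold change of -0.41 that did not pass edgeR's test (adjusted p = 0.101). It passed, also lower, with 1 more marker required (adjusted p = 0.0165), without control replicate 2 (adjusted p = 0.00213), without control replicate 4 (adjusted p = 0.0471) and without the barcodes 1 base from a deeper one. Itgb2 did not pass without CYR61 replicate 1 (log2 -0.44, edgeR adjusted p = 0.9999) or without CYR61 replicate 2 (log2 -0.33, edgeR adjusted p = 0.9996). Its partner Itgam had 1372 ± 206 CPM in dividing-marker cells and 1326 ± 152 CPM in the others, and was higher in 2 libraries and lower in 2. The log2 fold changes between cells are after TMM scaling, and that of Itgam was -0.19 and did not pass (edgeR adjusted p = 0.665). Without the barcodes 1 base from a deeper one, in CYR61 replicates 1 and 2 alone, Itgam passed as lower, with a log2 fold change of -0.30 (edgeR adjusted p = 4.36e-08), so that Itgam, Itgb2 and Itgb3 were the members called there. In that fit 2170 of all 11407 genes tested were called (1287 higher, 883 lower), so calls were frequent over all genes too. With 2 libraries its p-values rest on little replication. Itgb1, Itga4, Itga5, Itga6, Itgav and Itgb5 did not pass and had edgeR adjusted p from 0.316 to 0.984.

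**Figure D4:**
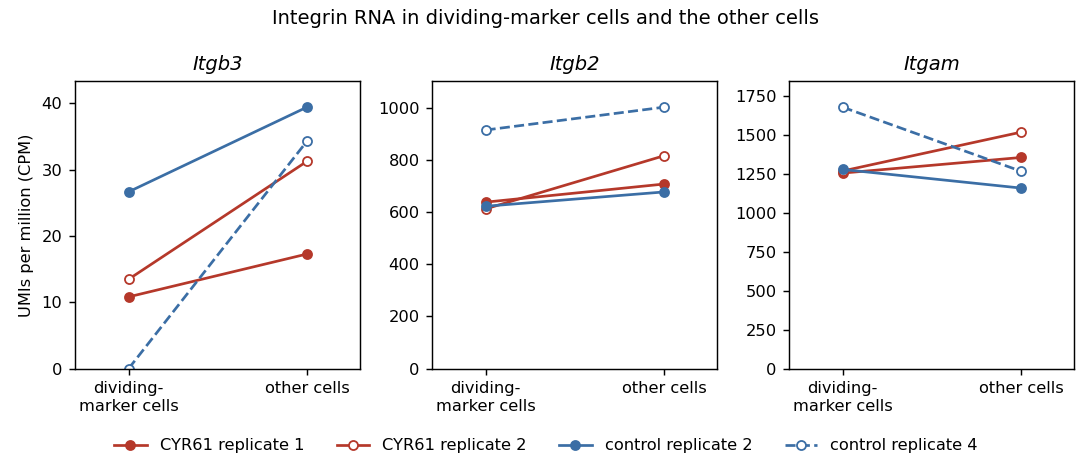
CPM of Itgb3, Itgb2 and Itgam in dividing-marker cells (left of each panel) and in the other cells of the same library (right), with a line for each of the 4 libraries that held at least 10 dividing-marker cells. Itgb3 and Itgb2 are lower in the dividing-marker cells of all 4 libraries, and Itgam is lower in 2 and higher in 2.

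Granule-marker cells had at least 3 of 8 neutrophil granule genes detected, and 7 libraries held at least 10 of them. These cells were deeper, with medians of 1926 to 13800 UMIs against 710 to 1570 in the other cells of the 7 libraries. The part of depth in this comparison was not tested. The granule-marker cells did not lack the members. In edgeR's test 2.07% of 9292 genes (1.12% higher, 0.947% lower) and 0 of the 9 members passed. Itgam had 1447 ± 226 CPM in granule-marker cells and 1297 ± 137 CPM in the other cells (SD, n = 7), and Itgb2 863 ± 169 CPM and 875 ± 188 CPM. Leaving out CYR61 replicate 2 made Itgb2 pass, with a log2 fold change of -0.24 (edgeR adjusted p = 0.0237). Itga6 was higher by CPM in the granule-marker cells of all 7 libraries, at 255 ± 80.3 CPM against 214 ± 77.8 CPM, but did not pass edgeR's test (adjusted p = 0.759). Csf1r was at 416 ± 86.2 CPM in granule-marker cells and 396 ± 80.5 CPM in the others.

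Monocyte-marker cells had at least 2 of 6 genes such as Ly6c2 detected and, again, were no granule-marker cells. They could be compared only in CYR61 replicates 1 and 2, with 46 cells in all. There 0.76% of 11185 genes (0.447% higher, 0.313% lower) and 0 of the 9 members passed edgeR's test. Itga4 averaged 362 ± 66.5 CPM in the monocyte-marker cells and 251 ± 7.37 CPM in the other cells (SD, n = 2 libraries), and did not pass (edgeR adjusted p = 0.580). Itgb2, which had the smallest p of the members there, averaged 612 ± 55.4 CPM in the monocyte-marker cells and 740 ± 59.3 CPM in the other cells, was lower in both libraries and did not pass either (log2 fold change -0.40, edgeR adjusted p = 0.350).

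Of the 17 other integrin genes, 5 passed the filter on low counts and none was called, with a median log2 fold change of 0.21 against -0.022 over all genes tested. Over all genes tested 1.16% were called, so 0 called in this list and the short lists below stands near that share. The groups did not overlap in 5.12% of all genes tested and in 1 of the 5 here. Below, they did not overlap in 2 of 24 activators and adaptors and 2 of 8 surface proteins. The same held for 3 of 9 membrane partners and 1 of 7 ligands. Itgax, which encodes CD11c, another alpha partner of Itgb2, had 110, 130, 66.1 and 99.7 CPM in CYR61 replicates 1 to 4, against 164, 154, 166 and 234 CPM in control replicates 1 to 4. Every CYR61 library was below every control, but the log2 fold change of -0.78 ± 0.23 (SE) did not pass edgeR's test over all genes (adjusted p = 0.273). Itgal, the alpha chain of the lymphocyte receptor LFA-1, averaged 57.3 ± 4.85 CPM in the CYR61 group and 43.0 ± 18.4 CPM in control libraries, and Itgb7, a partner of Itga4, 30.5 ± 18.8 and 25 ± 23.7 CPM (SD, n = 4 each). Itga9 and Itga1, the remaining ones, were below 20 CPM in the mean of each group. The 9 members held 90.1% to 94.6% of the CPM of all integrin genes in a library.

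The proteins that carry the integrin signal inside the cell had no called gene either. Of 31 genes of activators and adaptors 24 were tested and none was called, with a median log2 fold change of 0.055. The smallest p among them belonged to Parvb, an adaptor of integrin-linked kinase, at 36.5 ± 8.32 CPM with CYR61 and 59.9 ± 11.5 CPM in control libraries (edgeR adjusted p = 0.546). Every CYR61 library was below every control in Parvb and in the kinase gene Ptk2b, which was outside the rule for naming and had 134 ± 22.7 CPM with CYR61 and 175 ± 10.3 CPM in controls. Lims1, the partner of Parvb in the complex with integrin-linked kinase, was at 224 ± 16.3 CPM in the CYR61 group and 169 ± 38.6 CPM in control libraries, and Fyb, a leukocyte adaptor, at 882 ± 150 and 677 ± 87.6 CPM (edgeR adjusted p = 0.656 and 0.665). Tln1, which encodes talin, was at 296 ± 92.5 CPM with CYR61 and 445 ± 62.3 CPM in control libraries (edgeR adjusted p = 0.717). Syk, which the series title names, was at 229 ± 68.0 CPM in the CYR61 group and 227 ± 14.2 CPM in control libraries (SD, n = 4 each).

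Other surface proteins that bind CYR61 were 9, of which 8 were tested and none was called, with a median log2 fold change of -0.095. The pattern receptor Tlr2 had 16.9, 15.5, 14.8 and 15 CPM in CYR61 replicates 1 to 4, against 2.62, 6.79, 0 and 0.997 CPM in control replicates 1 to 4. These groups did not overlap, and the log2 fold change of 2.55 ± 0.62 (SE) did not pass edgeR's test (adjusted p = 0.104). The heparan sulfate proteoglycan Sdc3 averaged 287 ± 64.0 CPM with CYR61 and 151 ± 64.0 CPM in control libraries (SD, n = 4 each, edgeR adjusted p = 0.259). The endocytic receptor Lrp1 averaged 343 ± 44.3 CPM in the CYR61 group and 473 ± 80.4 CPM in controls, with every CYR61 library below every control, and the scavenger receptor Cd36 3432 ± 693 and 4984 ± 1593 CPM.

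All 9 integrin partners in the membrane were tested and none was called, with a median log2 fold change of -0.18. Cd47, which associates with integrins and signals to phagocytes, had 749, 692, 583 and 610 CPM in CYR61 replicates 1 to 4, against 393, 474, 455 and 287 CPM in control replicates 1 to 4. The groups did not overlap, and its log2 fold change of 0.75 ± 0.18 (SE) did not pass edgeR's test (adjusted p = 0.101). Cd81 and Cd151, tetraspanins, averaged 22.5 ± 4.27 and 51.7 ± 2.56 CPM in CYR61 libraries, against 39.3 ± 12.7 and 75.3 ± 18.8 CPM in control libraries. Every CYR61 library was below every control in Cd151, and also in Cd9, another tetraspanin, which was outside the rule for naming and had 625 ± 24.6 CPM with CYR61 and 724 ± 50.3 CPM in controls. Plaur, the urokinase receptor, averaged 58.4 ± 27.5 CPM in the CYR61 group and 97.8 ± 28.3 CPM in control libraries.

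Of 14 integrin ligands 13 were measured, 7 were tested and none was called, with a median log2 fold change of 0.39. Tgfbi, a matrix ligand of several integrins, had 103, 120, 187 and 176 CPM in CYR61 replicates 1 to 4, against 89.0, 76.4, 96.1 and 77.8 CPM in control replicates 1 to 4. Its groups did not overlap, and its log2 fold change of 0.81 ± 0.22 (SE) did not pass edgeR's test (adjusted p = 0.210). Vcam1, the ligand of Itga4 with Itgb1, averaged 13.1 ± 10.5 CPM with CYR61 and 4.15 ± 2.83 CPM in control libraries, Fn1, fibronectin, 59.5 ± 9.14 and 75.8 ± 29.2 CPM, and the matrix protein Thbs1 283 ± 266 and 157 ± 134 CPM. CCN ligands were hardly detected in the cells. Ccn1 had 1 UMI in all 8 libraries, and none of the 4 CCN genes measured passed the filter on low counts.

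Over the 8 libraries, the gene whose log2 CPM was most like each member was taken among about 3780 genes, as a description that rests on shared libraries and depth. It was Hsp90ab1 for Itgam (Pearson's r = 0.943), Ahcyl1 for Itgb2 (0.97), Coro1c for Itgb1 (0.976), Bach1 for Itga6 (0.971), Qrich1 for Itga4 (0.968) and Anp32e for Itgb5 (0.988). For Itgav it was Rap2c (0.989), for Itga5 Mgat1 (0.945) and for Itgb3 Sf1 (0.859). No member was most like another member.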

How the data were processed

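The deposited tables hold whole-number UMI counts per gene and barcode, 5000 barcodes in each of the 8 libraries, and the build mm10 is named per the submitters' processing notes. The aligner and counter that made them stand as not given in the sources used here. No cell call by the authors was used, and all 40000 barcodes were filtered as the report states. Counts were summed over the cells of each library and tested with edgeR 4.0.16 in R 4.3.3 (TMM factors, filterByExpr, quasi-likelihood test, group as the sole term, Benjamini-Hochberg adjusted p under 0.05 over all genes tested), after tests on simulated data. DESeq2 1.42.0 was an alternative. Expected shares of cells at 1000 UMIs are exact hypergeometric values, and 95% Wilson intervals cover counting error alone. CPM are not scaled by TMM. Doublets were not called. Members and lists were chosen with earlier results of these data known; from each list the up to 4 genes with the smallest p are named, and other integrins above 20 CPM. Gene positions and lengths are those of GENCODE vM21.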

Additional observations from a re-analysis of the deposited data

How the results depend on the processing

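None of the 9 members was called between CYR61 and control under any of the alternatives, which were DESeq2, other scalings, no filter, date, block and cell sets, and each library left out. The number of all genes called was 121 and became 183 with DESeq2, 239 without the filter on low counts, 236 with the Xist and Y libraries as a block, 0 with all kept cells (279 genes at an unadjusted p under 0.05) and 74 to 127 with 1 library left out, lowest without CYR61 replicate 4. For the difference between dates it was 0 and became 180 without the filter, 1 with barcodes listed in 1 table of their date, and 0 to 345 with 1 library left out, highest without control replicate 4. For granule-marker cells it was 127 to 240 with 1 library left out, lowest without CYR61 replicate 1. For dividing-marker cells it was 2170 without barcodes 1 base from a deeper one (a choice made after seeing the data), and 114 to 1179 with 1 library left out, lowest without CYR61 replicate 2 and at 137 without CYR61 replicate 1.

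Deviations of same-numbered libraries from their group means had r = -0.20, 0.32, -0.087 and 0.31 for numbers 1 to 4. CYR61 replicates 2 and 4 were most like the control of the same number, and CYR61 replicates 1 and 3 were not. The numbers were not taken as pairs, and these few values cannot settle whether they are. With the replicate block 117 genes and 0 members were called, and Itgb2 was at 0.0091.

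Signs of small log2 fold changes turned in 41 of 207 member values, none of them called, and the cause was not tested. Itgam became -0.021 with library totals alone, -0.068 in the later date, -0.067 with all kept cells, -0.059 with barcodes listed in 1 table and -0.041 without cells of other classes. Itgb2 became 0.029 without the filter and 0.019 in the later date. Itgav became 0.061 without the filter, 0.57 in the earlier date, 0.032 with barcodes listed in 1 table and 0.046 without barcodes near a deeper one. Itgb5 became 0.051 without the filter, 0.0031 in the earlier date and 0.026 without barcodes near a deeper one. Itgb1 became 0.075 without the filter and 0.17 in the earlier date. Itga5 became -0.026 with library totals alone, -0.099 in the later date, -0.15 without cells of other classes and -0.011 without barcodes near a deeper one. Itga6 became -0.45 in the later date and -0.11 with barcodes listed in 1 table. With 1 library left out the ranges were -0.055 to 0.13 for Itgam, -0.20 to 0.051 for Itgb2, -0.34 to 0.20 for Itgav, -0.18 to 0.086 for Itgb5, -0.17 to 0.11 for Itgb1, -0.064 to 0.15 for Itga5 and -0.051 to 0.43 for Itga6.

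In granule-marker cells, 1 more marker gave 0.047 for Itgam, -0.031 for Itgb1 and 0.016 for Itga5, and leaving out 1 library gave -0.070 to 0.019 for Itgam. In dividing-marker cells, Itgb1 became 0.037 with 1 more marker, Itgav 0.049 and Itgb1 0.12 without barcodes near a deeper one, and leaving out 1 library gave -0.51 to 0.042 for Itgav, -0.096 to 0.098 for Itgb1, -0.14 to 0.070 for Itga4 and -0.052 to 0.24 for Itga5.

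The differences of the pair shares, CYR61 minus control in percentage points, stayed uncalled in all alternatives. A single pair could not have been called by itself after the adjustment over the 7 pairs. Without thinning they turned to 3.58 for Itgam with Itgb2, 2.81 for Itgav with Itgb5, 2.42 for Itga5 with Itgb1 and 3.34 for Itga6 with Itgb1. With all kept cells they turned to 0.108 for Itgav with Itgb5 and 0.316 for Itga5 with Itgb1, and without barcodes near a deeper one to 0.143 for Itgav with Itgb5 and 1.01 for Itga6 with Itgb1. Itgav with Itgb1 was at -0.119 at 500 UMIs, and Itga6 with Itgb1 at 0.314 at 2000 UMIs. With 1 library left out they ranged from -4.39 to 2.33 for Itgam with Itgb2, -0.383 to 0.204 for Itgav with Itgb5, -0.420 to 0.978 for Itgav with Itgb1, -0.329 to 0.130 for Itga5 with Itgb1 and -2.49 to 1.38 for Itga6 with Itgb1. Per kb, Itgb5 ranked 5 and Itga4 ranked 6. Depth limits Itgb3 most, with 875 UMIs in all.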
